A study of Mus musculus with 11 samples.

Results

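The genes described here encode proteins of the basement membrane and the extracellular matrix of mouse embryonic stem (ES) cells. They are 9 genes given by name: Col4a1 and Col4a2 (collagen IV chains), Lama1, Lamb1 and Lamc1 (laminin chains), Nid1 (nidogen), Hspg2 (perlecan), Sparc and Fn1 (fibronectin). They were taken by symbol from 29686 genes named in any of 5 single-cell tables, where all 9 were found, and from 12588 genes of a bulk table, where 7 were found. Col4a1 and Col4a2 are not analysed here in bulk.

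The study compared ES cells grown in soft agarose microgels with cells on tissue-culture plastic, and wild-type cells with cells made to overexpress plakoglobin, a junction protein encoded by Jup. Single cells were profiled with inDrop, a droplet method that counts each captured transcript once through a unique molecular identifier (UMI), in 1 library per condition. The wild-type single-cell libraries were of E14, an established mouse ES cell line. They came from plastic cultures in serum with LIF (leukaemia inhibitory factor), plastic cultures in 2i/LIF and gel cultures in serum/LIF. A further pair of libraries, in serum/LIF on plastic, came from cells labelled as overexpressing plakoglobin from the constitutive CAG promoter at a high level (JupHigh) or a low level (JupLow). Their parent line, and whether each is 1 clone, are not given in the labels. For bulk RNA, Smart-seq2 was applied to samples of about 1000 cells of the line Rex1GFPd2, which the labels also call wild type. They were in 2i/LIF, with 3 libraries from gel and 3 from plastic. LIF was thus present in every group.

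A basement membrane is a thin sheet of matrix beneath epithelia. Laminin, a trimer of an alpha, a beta and a gamma chain, forms a first network at the cell surface, and collagen IV, a trimer of alpha chains, forms a second. Nidogen and the proteoglycan perlecan link both networks. In the early mouse embryo the primitive endoderm, and above all its parietal derivative, secretes large amounts of laminin and collagen IV. ES cells in 2i/LIF, where MEK and GSK3 are inhibited, are held close to the epiblast, whereas serum/LIF cultures are mixed and can hold endoderm-like cells.

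The single-cell libraries held 725 cells for E14 in serum/LIF on plastic and 2889 for 2i/LIF, with 112 in gel, 1200 labelled JupLow and 2153 labelled JupHigh, counting barcodes with at least 1000 UMIs. Median depth was 1731.5 to 2465 UMIs per cell, and the summed depth was 236195 UMIs in gel and 2017950 to 8284254 in the other 4. No barcode was shared between the kept cells of any 2 libraries. Levels are given as counts per 1e6 UMIs of the library (CPM) with exact Poisson 95% intervals. With 1 library per condition these intervals cover counting error only, and no single-cell difference has a replicate check. They treat UMIs as independent draws, and are too narrow for genes whose UMIs were concentrated in few cells. Jup itself was at 47.8 CPM (41.5 to 54.8) in the library labelled JupHigh and 37.9 (31.1 to 45.7) in that labelled JupLow. In E14 it was at 46.7 (42.2 to 51.6) in 2i/LIF, 38.1 (17.4 to 72.3) in gel and 36.7 (28.8 to 46.0) in serum/LIF on plastic. The names JupHigh and JupLow thus follow the labels. The ES cell genes Pou5f1 and Nanog were detected in all 5 libraries, but Sox2 had 0 UMIs in E14 in serum/LIF on plastic. Against that library, differences of 8-fold or more fell more often on genes whose exons overlap another gene (12.8% of such genes for JupLow) than on genes without an overlap (4.41%). Between JupHigh and JupLow the shares were 1.15% and 1.48%. The exons of Lama1, Lamb1, Lamc1, Hspg2 and Sparc overlap no other annotated gene, and those of the other 4 do so over at most 2.50% of their length. The longest overlaps were those of Fn1 (292 bases) and Nid1 (143 bases). This share does not show whether the counted part of a transcript lies in the overlap, and an effect on these 4 genes was not tested.

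Col4a1 (chr8:11198423-11312826, minus strand, GRCm38) and Col4a2 (chr8:11312805-11449287, plus strand) encode the most widespread collagen IV chains and are transcribed away from each other. Their first exons share 22 bases, shown because both genes start within this stretch, on the Col4a2 strand with a GC box in capitals.
Col4a1 and Col4a2, chr8:11312805-11312826: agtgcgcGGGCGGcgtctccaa
In the RefSeq windows from 250 bases before to 50 after each start (GRCm38.p6), 6 of the 9 genes had an entry. Lama1, Lamc1 and Fn1 had none. The GC box (GGGCGG, either strand) occurred 1 time in the window of Col4a1 and 3 times in that of Col4a2, and 35.7% of 32851 windows hold it.

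Col4a1 stood at 342 CPM (317 to 369) in E14 in serum/LIF on plastic, 73.7 (64.1 to 84.3) in JupLow, 67.7 (38.7 to 110) in gel, 29.9 (25.0 to 35.6) in JupHigh and 3.02 (1.95 to 4.45) in 2i/LIF. Col4a2 followed the same order, at 221 CPM (201 to 243), 45.9 (38.4 to 54.4), 42.3 (20.3 to 77.9), 12.3 (9.21 to 16.1) and 0.604 (0.196 to 1.41). E14 in serum/LIF on plastic was the highest library for both chains and 2i/LIF the lowest. JupLow and gel were the only neighbours in this order that did not differ beyond counting error, which leaves out the spread between cells. In gel, 1 cell held 11 of the 16 UMIs of Col4a1 and 1 cell 6 of the 10 of Col4a2. The place of gel above JupHigh thus rests on very few cells. The level in 2i/LIF rested on 25 UMIs of Col4a1 and 5 of Col4a2 in 2889 cells. Col4a1 was 113-fold lower there than in serum/LIF (log2 ratio -6.83, interval -7.46 to -6.25), and Col4a2 was 366-fold lower (-8.52, -10.15 to -7.28).

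The laminin chains are encoded on separate chromosomes, Lama1 at chr17:67697259-67822647, Lamb1 at chr12:31265234-31329644 and Lamc1 at chr1:153218922-153332786 (minus strand). The stretch before the annotated starts of Lamb1 is printed here, with the GC boxes (2, as CCGCCC) and 1 CCAAT box in capitals, since Lamb1 varied with collagen IV across libraries.
Lamb1, chr12:31265043-31265233: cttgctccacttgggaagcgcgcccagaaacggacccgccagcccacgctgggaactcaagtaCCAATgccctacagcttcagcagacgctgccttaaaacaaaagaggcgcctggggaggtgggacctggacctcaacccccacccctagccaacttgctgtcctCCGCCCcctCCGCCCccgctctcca

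Lama1, the alpha chain of the embryonic laminin, was at 304 CPM (281 to 329) in E14 in serum/LIF on plastic, 50.8 (26.3 to 88.7) in gel, 48.9 (42.6 to 56.0) in JupHigh, 33.8 (30.0 to 38.0) in 2i/LIF and 16.0 (11.7 to 21.3) in JupLow. Lamb1, a beta chain, was at 270 CPM (248 to 294) in E14 in serum/LIF on plastic, 97.4 (61.7 to 146) in gel, 88.2 (77.7 to 99.8) in JupLow, 54.7 (48.0 to 62.2) in JupHigh and 16.4 (13.8 to 19.4) in 2i/LIF. The gamma chain Lamc1 kept within a much narrower range, from 277 CPM (254 to 300) in E14 in serum/LIF on plastic through 220 (164 to 289) in gel, 198 (188 to 208) in 2i/LIF and 181 (169 to 195) in JupHigh to 134 (121 to 149) in JupLow. So the same library was highest for all 3 chains, but the lowest was JupLow for Lama1 and Lamc1 and 2i/LIF for Lamb1. Neighbours in these orders that did not differ beyond counting error were gel and JupHigh for Lama1, gel and JupLow for Lamb1, and for Lamc1 gel with both E14 libraries on plastic. In 2i/LIF relative to serum/LIF, the log2 ratio was -3.17 (-3.38 to -2.96) for Lama1, -4.04 (-4.32 to -3.77) for Lamb1 and -0.48 (-0.62 to -0.34) for Lamc1.

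Nid1 (chr13:13437551-13512269) encodes nidogen, which binds the laminin gamma chain and collagen IV, and Hspg2 (chr4:137468769-137570630) encodes perlecan, a large heparan sulfate proteoglycan. The stretches before their annotated starts are shown because these linkers did not vary across libraries as collagen IV did, with GC boxes and, for Nid1, a CCAAT box read on the other strand (ATTGG) in capitals.
Nid1, chr13:13437352-13437550: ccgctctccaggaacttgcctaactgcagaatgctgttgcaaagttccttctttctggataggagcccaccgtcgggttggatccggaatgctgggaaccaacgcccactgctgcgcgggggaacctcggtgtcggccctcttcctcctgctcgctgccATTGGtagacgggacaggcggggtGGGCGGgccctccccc
Hspg2, chr4:137468553-137468768: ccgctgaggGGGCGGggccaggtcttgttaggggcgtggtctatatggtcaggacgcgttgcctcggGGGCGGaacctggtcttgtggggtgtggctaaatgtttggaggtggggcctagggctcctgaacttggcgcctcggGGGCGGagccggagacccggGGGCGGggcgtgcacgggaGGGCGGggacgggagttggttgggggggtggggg
Hspg2 had 5 GC boxes in its window, a number that 2.71% of all windows reach. None of the 6 windows held GATAA or GATAG after an A or a T, as 29.8% of all windows do on either strand, or TATAAA, which 13.6% hold. CCAAT was in the windows of Col4a1, Col4a2, Lamb1 and Nid1 and in 37.4% of all windows. Sparc, highest in the same library as collagen IV, had 0 matches of any of these motifs in its window. These matches describe letters in a window and no binding site, and a link with levels was not tested.

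Nid1 was highest in 2i/LIF, at 94.2 CPM (87.7 to 101), followed by 77.0 (69.0 to 85.8) in JupHigh, 65.9 (55.2 to 78.1) in E14 in serum/LIF on plastic, 47.9 (40.3 to 56.6) in JupLow and 29.6 (11.9 to 61.1) in gel. JupHigh and E14 in serum/LIF, and JupLow and gel, did not differ beyond counting error. Hspg2 was highest in JupLow, at 69.1 CPM (59.9 to 79.4), followed by 49.6 (40.3 to 60.3) in E14 in serum/LIF on plastic, 37.1 (31.6 to 43.3) in JupHigh, 21.8 (18.8 to 25.3) in 2i/LIF and 12.7 (2.62 to 37.1) in gel. The gel value of Hspg2 came from 3 UMIs and that of Nid1 from 7.

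Sparc (chr11:55394500-55423183, minus strand) encodes a secreted collagen-binding protein that is a known product of parietal endoderm. It was at 928 CPM (886 to 971) in E14 in serum/LIF on plastic, 370 (348 to 393) in JupLow, 220 (164 to 289) in gel, 206 (197 to 216) in 2i/LIF and 152 (141 to 164) in JupHigh, with gel and 2i/LIF within counting error of each other. Fn1 (chr1:71585520-71653200, minus strand) encodes fibronectin, a matrix protein that binds integrins and is not confined to basement membranes. It did not follow the order of collagen IV, at 454 CPM (439 to 468) in 2i/LIF, 346 (325 to 368) in JupLow, 315 (298 to 332) in JupHigh, 270 (247 to 293) in E14 in serum/LIF on plastic and 212 (157 to 279) in gel. Only the last pair did not differ beyond counting error. In the plot of levels by library, the spread between libraries was widest for the collagen IV chains and narrowest for Fn1 and Lamc1.

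**Figure D1:**
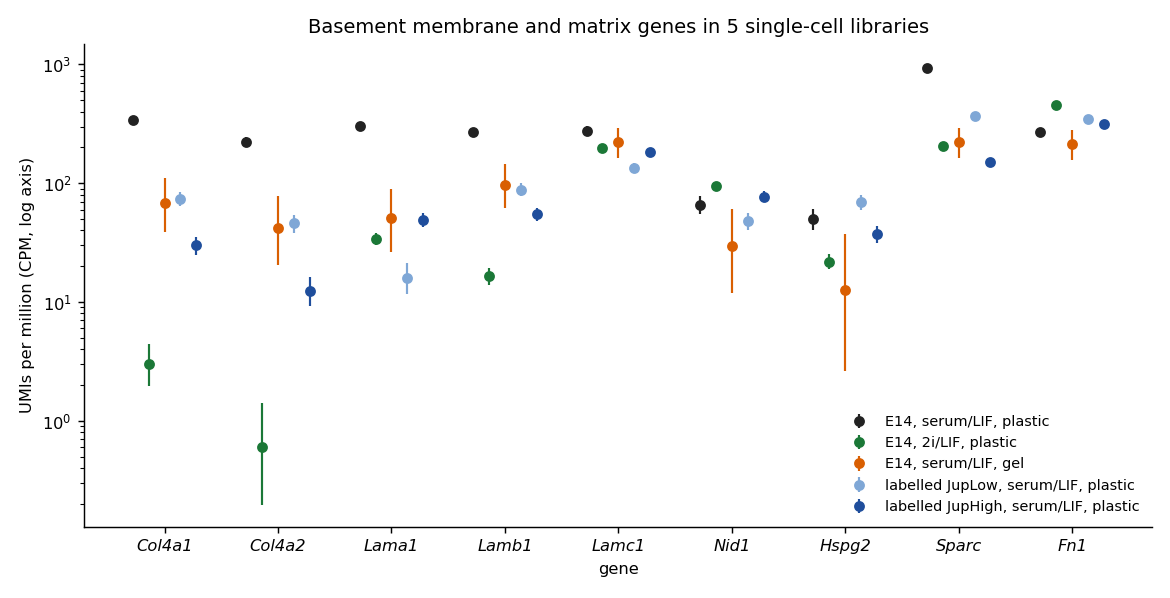
Level of each of the 9 genes in 5 single-cell libraries, as CPM on a log axis; points are summed cells and bars exact Poisson 95% intervals (counting error only, 1 library per condition). E14 in serum/LIF on plastic (black) is highest for Col4a1, Col4a2, Lama1, Lamb1, Lamc1 and Sparc, while 2i/LIF (green) is highest for Nid1 and Fn1 and lies at 3.02 CPM for Col4a1 and 0.604 for Col4a2.

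Pairs of libraries were then compared over all genes, counting a gene as past the fold when it differed by 2-fold or more and its higher level was at least 20 CPM. In 2i/LIF against serum/LIF, 6 of the 9 genes were lower past the fold (Col4a1, Col4a2, Lama1, Lamb1, Hspg2 and Sparc) and 0 were higher, where 15.3% of 7693 genes were lower and 11.6% higher. Their median log2 ratio was -2.17 (that of Sparc, interval -2.27 to -2.07), beside -0.02 over all genes. In gel against plastic, both in serum/LIF, 7 were lower (the same 6 and Nid1) and 0 higher, with 13.4% and 9.06% of all genes, and the median was -1.96 beside -0.04. The interval of that median, -4.27 to -0.38, is that of Hspg2 and is wide because the gel library is small.

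The libraries labelled as overexpressing plakoglobin were each set against E14 in serum/LIF on plastic, the same control as above, so these comparisons are not independent of each other. JupHigh had 5 genes lower past the fold (Col4a1, Col4a2, Lama1, Lamb1 and Sparc) and 0 higher, with 15% of all genes lower, 7.94% higher and 22.9% in either direction. JupLow had 6 lower (these 5 and Lamc1) and 0 higher, with 7.67% and 6.02%. The median log2 ratios were -2.30 for JupHigh and -1.33 for JupLow, beside -0.17 and 0.0022 over all genes. Between JupHigh and JupLow, which share no library with E14, 3 genes were lower in JupHigh (Col4a1, Col4a2 and Sparc) and 1 was higher (Lama1), with 8.44% of all genes lower and 2.63% higher. Lama1 was 3.06-fold higher in JupHigh (log2 1.61, interval 1.15 to 2.11), while Col4a1 was 2.46-fold lower (-1.30, -1.63 to -0.98), Col4a2 3.73-fold lower (-1.90, -2.39 to -1.43) and Sparc 2.43-fold lower (-1.28, -1.42 to -1.14). The laminin alpha chain and collagen IV were therefore on opposite sides in this pair. Counting every deposited barcode moved the median of this pair from -0.69 to -0.04.

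Endoderm markers differed between the libraries as well. The 13 genes of an endoderm list (such as Gata4, Gata6, Sox17, Dab2 and Srgn, with no member among them) summed to 580 CPM in E14 in serum/LIF on plastic, 254 in gel, 177 in JupLow, 35.0 in JupHigh and 8.7 in 2i/LIF. Not all members of the list followed the sum: Lrp2, an endocytic receptor, made up 376 of the 510 UMIs in JupLow and was at 131 CPM there and in E14 in serum/LIF on plastic, while Srgn was at 1.0 CPM against 172, Gata6 at 5.6 against 63.9 and Gata4 at 1.7 against 28.7. In 2i/LIF, Gata6, Pth1r and Thbd were at 0 UMIs, in gel Foxa2, Thbd and Plat, and in JupHigh Amn and Thbd. Cells holding UMIs of at least 2 genes of the list numbered 76 of 725 in E14 in serum/LIF on plastic (10.5%, exact binomial interval 8.35 to 12.9), 4 of 112 in gel, 33 of 1200 in JupLow (2.75%), 7 of 2153 in JupHigh and 1 of 2889 in 2i/LIF. They are called endoderm-gene cells here. The class is a cut in a count and no cell type: in E14 in serum/LIF, 212 cells held exactly 1 such gene, 24 exactly 2 and 52 at least 3. The cells inside had a median of 2751.5 UMIs and those outside 2352. In JupLow 26 of the 33 cells held exactly 2 and 7 held more, with medians of 3406 UMIs inside and 2157 outside. Its make-up differed between libraries for some of the 13 genes: 53 of the 76 cells of E14 in serum/LIF held Srgn, 45 Gata6 and 40 Lrp2, whereas 29 of the 33 of JupLow held Lrp2, 4 Gata6 and 1 Srgn. Dab2 (45 of 76 and 19 of 33) and Plat (18 of 76 and 9 of 33) were held by similar shares of both.

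In E14 in serum/LIF on plastic, the endoderm-gene cells held 11.9% of all UMIs but 82.3% of those of Col4a1, 81.4% of Col4a2 and 89.4% of Lama1. Col4a1 was at 2378 CPM inside the class and 68.6 outside, a 34.7-fold difference (log2 5.12, interval 4.83 to 5.41). Lama1, at 2294 CPM inside and 36.5 outside, differed most (62.8-fold, log2 5.97, 5.60 to 6.37). The other network chains were also far higher inside, with Lamb1 at 1530 CPM against 101 and Lamc1 at 1484 against 114. Sparc was at 5316 against 337 CPM.

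The linkers were also higher in these cells, by less, and fibronectin was lower. Nid1 was 4.06-fold higher inside, at 196 CPM against 48.4, and Hspg2 2.75-fold higher, at 113 against 41.0. Fn1 was lower inside, at 138 CPM (94.9 to 194) against 287 (263 to 313), a log2 ratio of -1.06 (-1.61 to -0.55). Pou5f1, a core ES cell factor, was at 343 CPM inside and 482 outside (log2 -0.49, -0.84 to -0.16). Fn1 and Pou5f1 were thus the only 2 of these 10 genes on the low side in endoderm-gene cells. Other ES cell genes did not all follow Pou5f1. Klf4 was higher inside (log2 1.94, 1.396 to 2.471), whereas Nanog (-2.45, -4.35 to -1.07), Zfp42, Utf1 and Tdgf1 were lower. Dppa5a (-0.07, -0.37 to 0.22), Esrrb and Fgf4 did not differ beyond counting error.

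**Figure D2:**
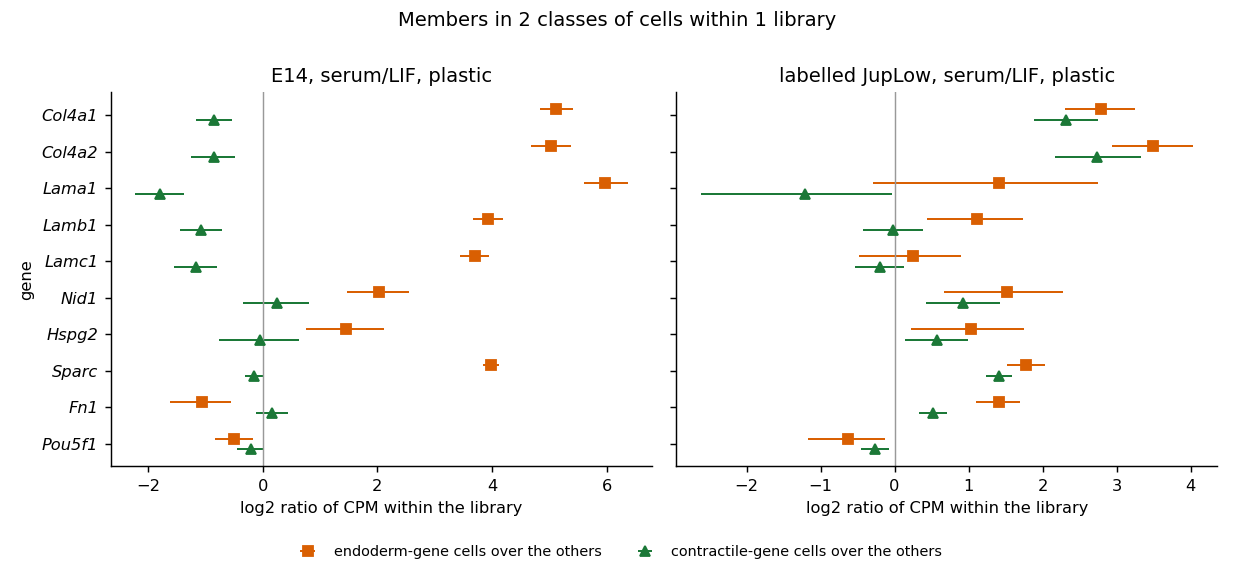
Log2 ratio of CPM between cells with at least 2 endoderm genes (orange squares) or at least 2 contractile or fibroblast genes (green triangles) and the remaining cells of the same library, for the 9 genes and Pou5f1, with exact conditional binomial 95% intervals (counting error only). In E14 in serum/LIF Lama1 stands at 5.97 in endoderm-gene cells and -1.78 in contractile-gene cells. In JupLow Col4a1 stands at 2.79 and 2.32, but 21 of the 33 endoderm-gene cells there are also contractile-gene cells.

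Leaving the endoderm-gene cells out of every library changed the comparisons with E14 in serum/LIF on plastic. Of the 9 genes, 3 remained lower past the fold in 2i/LIF (Col4a1, Col4a2 and Lamb1, with 15.1% of all genes) and 0 were higher (12.1% of all genes), and the median log2 ratio was -0.71. The ratio of Col4a1 was then -4.51, that of Col4a2 -6.27 and that of Lamb1 -2.62, whereas Lama1 was at -0.11 and Lamc1 turned to 0.80. In JupHigh 4 remained lower (Col4a1, Col4a2, Lamb1 and Sparc, with 14.2% of all genes) and 0 higher (7.89%), with a median of -0.18, and Lama1 (0.21) and Lamc1 (0.62) turned positive. In JupLow 1 remained lower (Lama1 at -1.29, with 7.3% of all genes) and 0 higher (6%), with a median of -0.13, and Col4a1 was at -0.23. In gel 4 were lower (Col4a1, Col4a2, Lama1 and Hspg2, with 13.2% of all genes) and 0 higher (9.52%), with a median of -0.68. JupHigh against JupLow kept the same 4 genes past the fold without these cells, 1 higher and 3 lower, with 2.67% and 7.92% of all genes. Fn1 moved little, from 0.75 to 0.66 in 2i/LIF and from -0.35 to -0.41 in gel.

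Cells with contractile genes formed a second class that differed between libraries. The 13 genes of a contractile and fibroblast list (such as Acta2, Tagln and Cnn1) summed to 1354 CPM in JupLow, 910 in E14 in serum/LIF on plastic, 207 in gel, 28.5 in JupHigh and 4.6 in 2i/LIF. Dcn and Lum, fibroblast genes, were at 0 UMIs in JupLow, and Dcn, Lum and Postn in E14 in serum/LIF on plastic. Other fibroblast genes of the list were counted. JupLow had Col1a1 (38 UMIs), Thy1 (15), Col1a2 (13), Col3a1 (7), Postn (6) and Pdgfrb (3). E14 in serum/LIF on plastic had Col1a1 (46), Col3a1 (13), Col1a2 (11), Thy1 (9) and Pdgfrb (1). Cells with UMIs of at least 2 of these genes numbered 299 of 1200 in JupLow (24.9%), 127 of 725 in E14 in serum/LIF (17.5%), 9 in gel, 11 in JupHigh and 0 in 2i/LIF. This split was added after the levels had been seen. In JupLow 164 of the 299 cells held exactly 2 such genes. Cells inside were deeper, with medians of 2548 against 2098 UMIs in JupLow and 3282 against 2233 in E14 in serum/LIF. Of the 76 endoderm-gene cells of E14 in serum/LIF 12 were also in this class, and of the 33 of JupLow 21 were.

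In JupLow the contractile-gene cells held 29.4% of the UMIs but 67.5% of those of Col4a1, 73.5% of Col4a2 and 52.6% of Sparc. Col4a1 was at 169 CPM (142 to 199) inside and 33.9 (26.4 to 43.0) outside, and Col4a2 at 115 against 17.2 (log2 2.73, 2.16 to 3.34). Lamb1 (87.5 against 88.6 CPM) and Lamc1 (122 against 140) did not differ beyond counting error, and Lama1 was lower inside (8.27 against 19.2, log2 -1.21, -2.62 to -0.04). In E14 in serum/LIF on plastic Col4a1 was at 214 CPM inside the class and 384 outside, and Lama1 at 107 against 368, but the cells outside include 64 of the 76 endoderm-gene cells. With all endoderm-gene cells left out of both sides, a comparison added after seeing the data, Col4a1 in E14 was at 101 CPM inside and 57.7 outside (log2 0.81, 0.25 to 1.36), Sparc at 566 against 261 (1.11, 0.87 to 1.35) and Lama1 at 13.5 against 44.2 (-1.71, -3.21 to -0.50). In JupLow, Col4a1 was then at 126 CPM against 33.0 (1.93, 1.46 to 2.41), and Lama1 no longer differed beyond counting error (-0.88, -2.29 to 0.32). In JupHigh, where 8 cells remained in the class, Col4a1 was at 572 against 15.4, from 10 UMIs, and Lama1 was higher inside, at 400 against 40.9 (3.29, 1.95 to 4.36), from 7 UMIs. Col4a1 was thus on the high side of the class in these 3 libraries once endoderm-gene cells were set aside. For JupHigh this rests on very few cells, since only 3 of all 11 contractile-gene cells there held a UMI of Col4a1. With endoderm-gene cells included, Fn1 was 1.43-fold higher inside the class in JupLow (440 against 307 CPM, log2 0.52) and not distinguishable in E14 (293 against 262, log2 0.16, -0.12 to 0.44). Without them it was at 364 against 306 CPM in JupLow (0.25, 0.04 to 0.46) and at 295 against 285 in E14 (0.05, -0.24 to 0.34).

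Without the contractile-gene cells, JupHigh had 0 genes lower past the fold against JupLow (5.91% of all genes were) and 2 higher, Lama1 (log2 1.22) and Nid1 (1.03, with 2.41% of all genes higher). The ratios of Col4a1 and Sparc were then -0.78 and -0.88. That of Col4a2 was -0.997, just short of 2-fold, and Col4a2 was below 20 CPM in both libraries (8.63 in JupHigh, 17.2 in JupLow). In the other 4 comparisons the same genes were lower past the fold without these cells and 0 were higher. They were 6 in 2i/LIF, with 15.3% of all genes lower and 11.9% higher, 5 in JupHigh (13.9% and 7.81%), 6 in JupLow (8.47% and 6%) and 7 in gel (14.2% and 9.53%). Whether cells of either class account for a difference between conditions was not tested beyond these values, since each condition has 1 library.

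**Figure D3:**
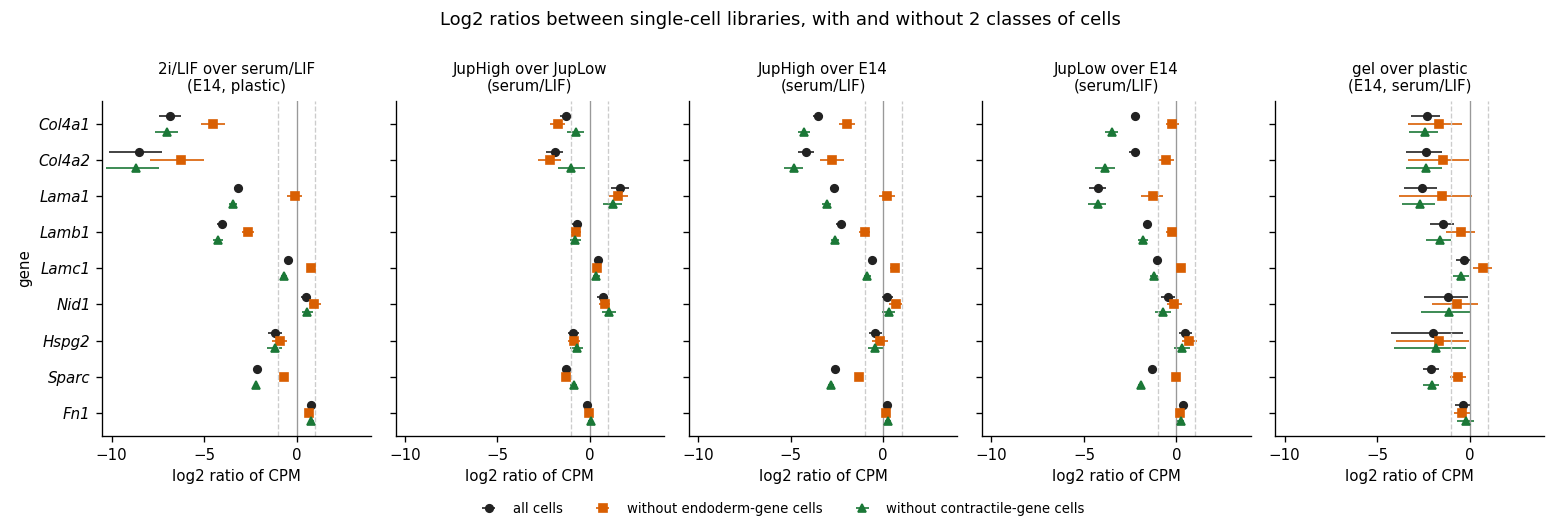
Log2 ratio of CPM of each of the 9 genes in 5 comparisons of single-cell libraries, with all cells (black), without cells with at least 2 endoderm genes (orange) and without cells with at least 2 contractile or fibroblast genes (green). Bars are exact conditional binomial 95% intervals (counting error only) and dashed lines mark a 2-fold difference; Lama1 in 2i/LIF over serum/LIF moves from -3.17 to -0.11 without endoderm-gene cells, and Col4a1 from -6.83 to -4.51.

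The few endoderm-gene cells of the other libraries differed among themselves. The single such cell in 2i/LIF had 0 UMIs of both collagen IV chains and all 3 laminin chains. In JupHigh the 7 cells had Col4a1 at 3625 CPM, against 17.7 in the rest, and Sparc at 4446 against 138, with 53 and 65 UMIs, and Fn1 had 0 UMIs in them, with an exact interval reaching 252 CPM. In JupLow the 33 cells had Col4a1 at 404 CPM (301 to 531) against 58.5 (49.8 to 68.3). Lama1, at 39.6 (12.9 to 92.5) against 14.9 (10.7 to 20.2), and Lamc1, at 159 against 133 (log2 0.25, -0.48 to 0.90), did not differ beyond counting error. Lamb1 was higher inside, at 182 against 83.9 CPM (log2 1.12, 0.43 to 1.74). So were Col4a2 (3.50), Sparc (1.78), Nid1 (1.52, 0.66 to 2.27) and Hspg2 (1.03, 0.22 to 1.75). Fn1 was higher in the JupLow cells of the class, at 856 CPM against 322 (log2 1.41, 1.11 to 1.70). That is the opposite side from E14 in serum/LIF, and the difference between these libraries was not tested. Of these 33 JupLow cells 21 were also contractile-gene cells, so the classes are not separate there. Contractile-gene cells of JupLow held 143 UMIs of Col4a1, and 95 with endoderm-gene cells left out, where endoderm-gene cells held 51. For Fn1 these counts were 372, 275 and 108. The drop from the first count to the second is the part held by cells of both classes. For either gene it made up most of the UMIs of the JupLow endoderm-gene cells. In gel the 4 cells held 11 of 16 UMIs of Col4a1, all 11 of them in 1 cell.

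The share of cells with a UMI was compared after thinning each cell to 1000 UMIs. Col4a1 was found in 11.2% of cells (exact binomial interval 8.97 to 13.7) in E14 in serum/LIF on plastic, 4.67% (3.54 to 6.02) in JupLow, 3.57% (0.982 to 8.89) in gel, 0.975% (0.605 to 1.49) in JupHigh and 0.277% (0.12 to 0.545) in 2i/LIF. Unthinned shares were 17.8%, 9.67%, 4.46%, 1.53% and 0.831%. Fn1 was found in 31.4% (29.7 to 33.1) of cells in 2i/LIF, 26.3% in JupHigh, 25.1% in JupLow, 21% (18.1 to 24.1) in E14 in serum/LIF on plastic and 17.9% in gel, and unthinned in 57.7%, 43.2%, 42.8%, 35.6% and 25.9%. In 2i/LIF the share was the lowest of the 5 libraries for Col4a1 and the highest for Fn1.

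UMIs of the network genes were concentrated in few cells of E14 in serum/LIF on plastic. The 37 cells (the top 5%) with most UMIs of Lama1 held 86.7% of them after thinning, those for Col4a1 81.6%, for Sparc 60.9%, for Fn1 40.7% and for Pou5f1 30.6%. Up to 27 of 1000 thinned UMIs in 1 cell were Sparc, and up to 19 Col4a1, against 4 for Fn1 and 4 for Pou5f1. The variance of thinned UMIs over cells was 7.93 times the mean for Sparc, 6.71 for Lama1 and 6.57 for Col4a1, against 1.30 for Fn1, 1.09 for Nid1 and 1.07 for Hspg2. In 2i/LIF the largest such value among the 9 genes was 1.22. Barcodes under 500 UMIs, which can hold free RNA or small and damaged cells, also carried these genes. In E14 in serum/LIF on plastic, Col4a1 was at 289 CPM (267 to 313) in them, Sparc at 1007 (965 to 1050) and Nid1 at 67.3, against 342, 928 and 65.9 over cells. The other 6 genes were further below their level over cells, with Lama1 at 165 against 304, Lamb1 at 135 against 270, Hspg2 at 15.2 against 49.6 and Fn1 at 129 against 270. In JupLow, Col4a1 was at 31.0 (23.5 to 40.1) and Sparc at 389 (361 to 418). How far free RNA sets the levels outside endoderm-gene cells was not tested.

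**Figure D4:**
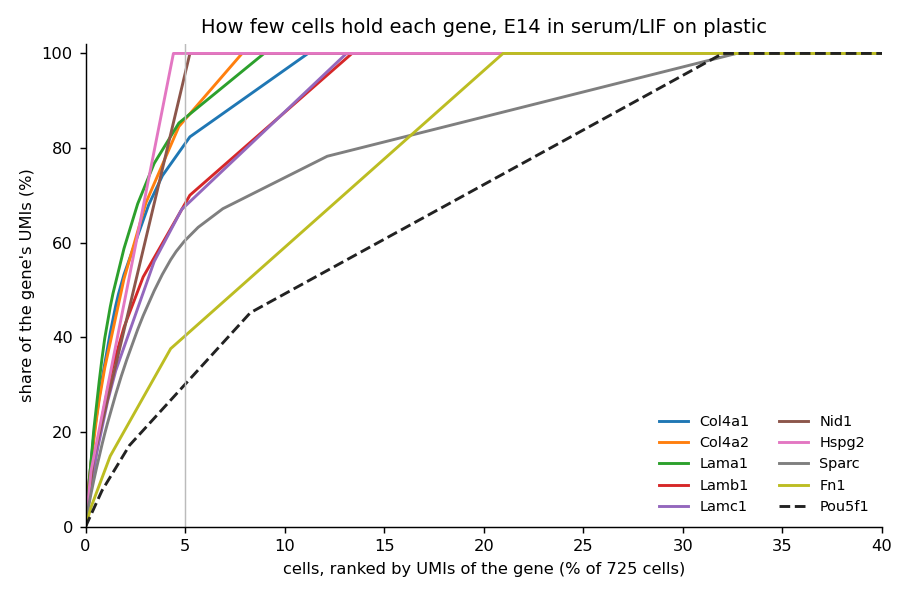
Cumulative share of each gene's UMIs held by cells ranked from most to fewest UMIs of that gene, in 725 cells of E14 in serum/LIF on plastic, each thinned to 1000 UMIs. At 5% of cells (grey line) the curve of Lama1 is at 86.7% and that of Fn1 at 40.7%, with Pou5f1 (dashed) at 30.6%; Nid1 and Hspg2 reach 100% early because few of their UMIs were counted.

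Over cells of E14 in serum/LIF on plastic, the genes also occurred together. Of 36 pairs, 15 had a Pearson correlation over 0.3 on log2(1 + UMIs per 10000) in thinned cells, with a maximum of 0.72 for Col4a2 with Lama1. These 15 were the pairs among Col4a1, Col4a2, Lama1, Lamb1, Lamc1 and Sparc. Lama1 was found in 49.4% of the 81 cells with Col4a1 and in 3.88% of the cells without it. In 2i/LIF no pair exceeded 0.10, in JupLow the highest was 0.32 (Col4a1 with Col4a2) and in JupHigh 0.64 (the same pair). That pair was held together by 14 cells in JupLow and 7 in JupHigh. In 2i/LIF Col4a1 was found in 8 thinned cells and Col4a2 in 1, too few for their pairs to show a correlation. The 8 pairs over 0.3 in gel rest on 2 or 3 cells holding both genes. These correlations are over cells of 1 library, share its depth and any free RNA, and are given as a description.

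The genes most like the summed members over cells were named in each library with at least 500 cells, by the same measure without thinning. In E14 in serum/LIF on plastic they were Serpinh1 (r = 0.50), a collagen chaperone, P4ha2 (0.47), a prolyl hydroxylase of collagen, Lgmn (0.46), a lysosomal protease, Srgn (0.44), a proteoglycan core protein, and Gata6 (0.42), an endoderm transcription factor, over 725 cells; the last pair are on the endoderm list. In JupLow they were Ahnak (0.31), Thbs1 (0.29), a matricellular protein, Serpinh1 (0.28), Flnc (0.28), an actin crosslinker, and mt-Co1 (0.27), over 1200 cells. In 2i/LIF and JupHigh the leading genes were mitochondrial genes such as mt-Cytb (0.35) and mt-Nd4 (0.17) and gene models named Gm29216 and the like.

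Bulk libraries of gel and plastic cultures in 2i/LIF gave the replicated comparison for 7 of the genes. They held 707718 to 866721 reads in gel and 637235 to 2583256 on plastic. Values are the deposited ones, counts divided by 1 factor per library. Of 7878 genes tested with limma, 2906 were called at an adjusted p under 0.05 (36.9%), 18.3% of all tested being higher in gel and 18.6% lower. In these libraries fewer cells of a type and less RNA per cell cannot be told apart. The labels do not say whether libraries of a group came from separate cultures, so the p-values measure the spread between libraries, which may be technical.

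Nid1, Lama1, Fn1 and Lamc1 rose in gel, and Sparc did not pass the test. Lamb1 and Hspg2 did not pass the filter on low reads, so 5 of the 9 genes were tested and 4 called. All gel values lay above all plastic values for each of the 4, as they did for 24.4% of all tested genes. The median log2 fold change of the 5 was 0.67, beside -0.02 over all tested genes.

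Nid1 was at 143, 133 and 122 in the gel libraries and at 69.8, 65.3 and 57.7 on plastic. The means were 133 ± 10.5 and 64.3 ± 6.14 (SD, n = 3 each), and the log2 difference was 1.04 (SE 0.14, adjusted p = 3.01e-05 with limma). Lama1 was at 23.7, 25.8 and 24.7 in gel and at 12.1, 16.4 and 9.11 on plastic (0.99, SE 0.29, adjusted p = 0.0117 with limma), from 18 to 21 reads per gel library and 6 to 42 per plastic library. Its call was lost with DESeq2 (adjusted p = 0.0565) and when libraries were thinned to the shallowest (0.0721), and ranged from an adjusted p of 0.00982 to 0.0721 over the alternatives.

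Fn1 was at 328, 349 and 327 in gel and at 194, 208 and 229 on plastic, with means of 335 ± 12.1 and 210 ± 17.7 (log2 0.67, SE 0.11, adjusted p = 0.000143 with limma). Lamc1 was at 98.2, 108 and 110 in gel and 66.9, 76.7 and 66.8 on plastic (0.59, SE 0.14, adjusted p = 0.00378 with limma). Sparc was at 197, 203 and 220 in gel and 213, 178 and 211 on plastic, groups that overlap (0.05, SE 0.12, adjusted p = 0.786 with limma). Lamb1 had 4, 3 and 8 reads in gel and 19, 18 and 2 on plastic, and Hspg2 4, 3 and 1 against 3, 4 and 0, too few for a comparison.

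**Figure D5:**
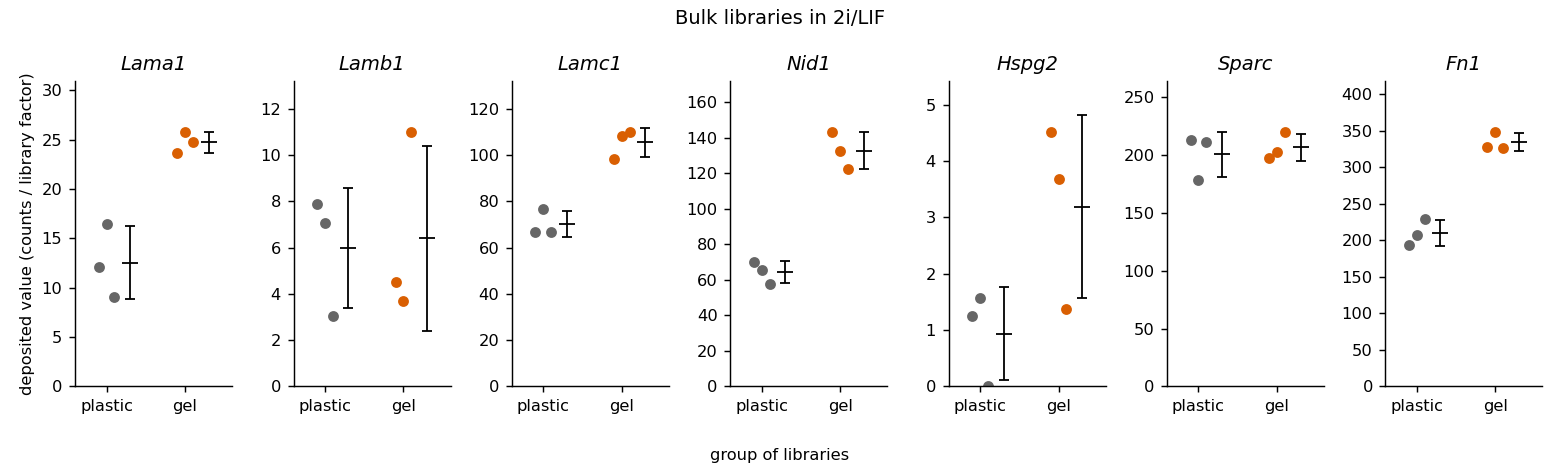
Deposited value (counts divided by 1 factor per library) of 7 of the genes in 3 plastic (grey) and 3 gel (orange) bulk libraries in 2i/LIF, each axis starting at 0; dots are libraries and black bars the mean ± SD. Gel lies wholly above plastic for Lama1, Lamc1, Nid1 and Fn1, while the groups overlap for Lamb1, Hspg2 and Sparc.

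Per kilobase of annotated exons, the deposited value on plastic was 53.0 for Sparc, 18.0 for Fn1, 9.26 for Nid1, 8.48 for Lamc1, 1.29 for Lama1, 0.604 for Lamb1 and 0.0655 for Hspg2. In gel it was 54.6, 28.6, 19.1, 12.7, 2.56, 0.645 and 0.223 in the same order of genes. The order was the same in both groups, with the alpha and beta laminin chains well below the gamma chain. Of neighbours in this order, Nid1 and Lamc1 overlapped over the plastic libraries, and none overlapped in gel.

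In bulk none of the endoderm list was tested. Only Lrp2 and Srgn of it were in the table, with a summed value of 7.37 to 12.4 in gel and 8.73 to 11 on plastic, and of the contractile list only Pdgfrb was, at 0 to 3.39 and 1.25 to 4.55. The ranges of both sums overlapped between gel and plastic. Lrp2 alone was higher in every gel library (5.64, 4.91 and 6.87) than on plastic (3.74, 4.30 and 3.04), and Srgn had a lower mean in gel (3.78 against 6.41). These values rest on 5, 4 and 5 reads of Lrp2 in gel and 9, 11 and 2 on plastic. Srgn had 3, 2 and 4 against 12, 17 and 5, so both had too few for a comparison. All gel values lay above all plastic values for 24.4% of tested genes. All 10 ES cell markers were tested. Of these 6 rose in gel, beside 18.3% of all tested genes, among them Klf4 (1.84, SE 0.19), Esrrb (1.55, SE 0.14), Sox2 (1.51, SE 0.24) and Pou5f1 (1.31, SE 0.17), and 2 fell, beside 18.6%, Nanog (-0.34, SE 0.091) and Zfp42 (-0.32, SE 0.095), with adjusted p values from 4.88e-07 to 0.0124 with limma. The part of these differences in those of the matrix genes was not tested.

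Other matrix genes were read from 5 lists, whose bulk counts stand beside 18.3% of all tested genes called higher in gel and 18.6% called lower. In bulk, of 27 other basement membrane genes 10 were in the table and 6 were tested, and only Nid2, the second nidogen, was called (123, 108 and 131 in gel, 79.4, 74.0 and 71.3 on plastic, log2 0.68, SE 0.14, adjusted p = 0.00107 with limma). Nid2 lies outside the naming rule and was chosen after its value was seen. Of 19 receptors 9 were tested, 3 rose and 1 fell (18.3% and 18.6% of all tested genes). Those that rose were Bcam, a laminin receptor (1.86, SE 0.37, adjusted p = 9.00e-04 with limma), Dag1, dystroglycan (0.76, SE 0.26), and Itga6, a laminin-binding integrin chain (0.71, SE 0.26). The one that fell was Sdc4, a syndecan (-1.34, SE 0.26).

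Of 24 genes of collagen and matrix biosynthesis 11 were tested, and 2 fell, a share near the 18.6% of all tested genes: Sec23a of the secretory coat (-0.89, SE 0.13) and P3h1, a prolyl hydroxylase (-0.77, SE 0.23). Of 16 proteases and inhibitors 3 were tested and Adam19 rose (0.86, SE 0.20). Of 25 interstitial matrix genes 2 were tested and Spp1, osteopontin, fell (-0.38, SE 0.091). With so few tested, nothing is read from the counts of these last lists. The 8 genes named by rule were chosen among those called, and their adjusted p with limma ran from 6.67e-05 to 0.0428.

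In single cells, 6 of the 27 other basement membrane genes reached 20 CPM. Against E14 in serum/LIF on plastic, 2 of the 6 were lower past the fold in 2i/LIF (15.3% of all genes), 1 in JupHigh (15%), 0 in JupLow (7.67%) and 1 in gel (13.4%), and 1 was higher in each (11.6%, 7.94%, 6.02% and 9.06%). The higher gene was Nid2 each time, against the same control library, where it was at 18.8 CPM. It was at 168 CPM in 2i/LIF, 143 in JupHigh, 200 in JupLow (10.6-fold higher) and 119 in gel. The exons of Nid2 overlap another gene. The collagen biosynthesis genes, with 17 of 24 at that level in 2i/LIF against serum/LIF, were lower past the fold for 7 and higher for 4, where 15.3% of all genes were lower and 11.6% higher. Among them P4ha2 was 4.88-fold lower in JupLow (log2 -2.29, -2.91 to -1.70) and had 1 UMI in gel against 106 on plastic (-3.63, -8.95 to -1.12). P4hb, the beta subunit of the same hydroxylase, was 1.34-fold higher in JupHigh than in JupLow. Ppib and Colgalt1 had 1 and 14 UMIs in E14 in serum/LIF on plastic and were far higher in the other 4 libraries, with log2 ratios of 7.54 to 8.63 for Ppib, and both overlap other genes.

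Among receptors and interstitial matrix genes, more were lower past the fold than higher in 2i/LIF and JupHigh. Of 12 receptors at 20 CPM, 7 were lower past the fold in 2i/LIF (15.3% of all genes), 6 in JupHigh (15%), 1 in JupLow (7.67%, a share near the background) and 3 in gel (13.4%), and 0 were higher. Itga1, a collagen-binding integrin chain, was 107-fold lower in 2i/LIF (log2 -6.74, -7.98 to -5.74), 13-fold lower in JupLow and 8.15-fold lower in gel, and its exons overlap another gene. Itga3, a laminin-binding integrin chain with no overlap, was lower in JupHigh than in JupLow by a log2 ratio of -4.32 (-4.88 to -3.81) and 14.6-fold lower than in E14. Of 7 interstitial genes, 6 were lower and 1 higher in 2i/LIF and in JupHigh, 0 were past the fold in JupLow and 2 were lower in gel, beside the same shares of all genes. Thbs1 had 0 UMIs in 2i/LIF against 244 in serum/LIF, and was 42.8-fold lower in JupHigh than in JupLow (-5.42, -6.14 to -4.78). Spp1 was 2.29-fold higher in JupHigh (1.19, 0.99 to 1.40). The exons of Thbs1 and of Spp1 also overlap another gene. Of the 16 proteases and inhibitors, 5 reached 20 CPM in 2i/LIF against serum/LIF, where 2 were lower and 1 higher, beside 15.3% and 11.6% of all genes.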

How the data were processed

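The unit of the bulk table, as the authors deposited it, is a signal. As judged from the values, it is gene counts divided by 1 factor per library, and every value is a whole multiple of the library's smallest, so whole reads were recovered (100% within 0.01 reads). The single-cell values are UMI counts per gene and barcode as the authors deposited them. FastQC, STAR, featureCounts, DESeq2 and Scanpy, and the builds mm10 and GRCm38, are named in the submitters' processing notes, with no role or version. Annotation, strand setting and barcode filter are not given in the sources used here.

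Bulk groups of 3 libraries were compared in R 4.3.3 with limma 3.58.1, on log2(value + 0.5) with an intensity trend, which understates the change of low genes. Genes had to pass filterByExpr of edgeR 4.0.16 on recovered reads, and p-values were Benjamini-Hochberg adjusted over all 7878 tested genes, at a threshold of 0.05. As alternatives, edgeR and DESeq2 1.42.0 took the recovered reads. The step was tested on simulated data for this comparison. Of 7695 genes, 200 were changed 4-fold, 100% of them passed, 1.96% of the genes passing were false, and without any change 0 passed. In the data 36.9% of genes were called, and the called members differed by a log2 of 0.59 to 1.04. The simulation therefore does not show how often changes of that size would pass. Replicate pairs had a chi-square of 1.58 to 2.20 per degree of freedom over genes, so none was a duplicate. The replicate numbers did not pair the libraries. Title and description give plastic library 2 different numbers; the number of the title was taken. Names of the plastic columns also contain a mark for gel.

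Cells were barcodes of at least 1000 UMIs, and no doublet caller was run. Barcodes with 8 or more G at both ends, columns without a gene name (0.00509% to 0.499% of UMIs) and 1 incomplete line of the gel table were left out. UMIs were summed per library. Levels carry exact Poisson and ratios exact conditional binomial 95% intervals, and shares exact (Clopper-Pearson) intervals. These cover counting error only. Python 3.11.15, NumPy 2.4.6, SciPy 1.17.1 and pandas 2.3.3 were used.

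The genes and lists were chosen with earlier results of these data known. Named beside the 9 genes were, from the 5 matrix lists, the 4 called genes with the largest change in each direction in bulk and the 2 largest ratios in each direction at 50 CPM or more in single cells. By likeness, the 5 genes with the highest correlation with the summed 9 genes were named, if detected in at least 2% of cells. Of a 7-gene trophectoderm list, 2 to 6 genes had a UMI, with sums of 8.1 to 36.5 CPM. Gene positions are from GENCODE on GRCm38, and sequences from RefSeq (GRCm38.p6). 0 columns belonged to other samples.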

Additional observations from a re-analysis of the deposited data

Results flagged for a closer look

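Lama1 and Nid1 went in opposite directions between gel and plastic in the 2 assays. Lama1 was higher in every gel library than in every plastic library in bulk (log2 0.99), but lower in gel in single cells (-2.58, interval -3.54 to -1.77). Nid1 was likewise higher in bulk (1.04) and lower in single cells (-1.15, -2.50 to -0.07). The difference between the assays was not tested. Line, medium, assay and library depth all differ between them and cannot be told apart. Without endoderm-gene cells the single-cell ratio was -1.49 for Lama1 and -0.68 for Nid1, from 3 and 7 gel UMIs outside that class.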

How the results depend on the processing

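In bulk, 71 of 74 recomputed values of the 5 tested genes kept their direction and their side of the threshold. The exceptions were Lama1, no longer called with DESeq2 (log2 0.91) or after thinning to the shallowest library (0.86), and Sparc, which was never called and ranged from -0.038 (without plastic replicate 2) to 0.091 when 1 library was left out. With 10 reads required in all 6 libraries Lama1 was not tested. The count of called members was 3 in place of 4 with DESeq2, that filter and thinning, and the count of called genes ran from 2188 (DESeq2) to 3158 (edgeR with TMM). Leaving out 1 library at a time gave 2361 to 2833 called genes, 4 called members each time, and a median log2 fold change of the members of 0.61 to 0.73. With the replicate number as a block, 2988 genes and 4 members were called. The correlations of same-numbered libraries were -0.05, 0.02 and 0.02, so the numbers were not taken as pairs.

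For the single cells 26 of 40 recomputed medians lay inside the interval of the reported one, 14 lay outside it, and 0 changed sign. TMM factors gave -1.92 for 2i/LIF, -2.02 for JupHigh and -1.16 for JupLow against E14 in serum/LIF. Every deposited barcode gave -2.28, -1.87 and -1.53, and -0.043 for JupHigh over JupLow. Without barcodes above 3 times the median the value was -2.27 for 2i/LIF and -1.47 for JupLow. Without endoderm-gene cells it was -0.71, -0.18 and -0.13. Without contractile-gene cells, an alternative added after seeing the data, it was -2.60 for JupHigh and -1.81 for JupLow. The cause was not tested. The gel library, with 112 cells, limits every gel ratio.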
